A study of Mus musculus with 18 samples.

Results

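O9-1 cells in which Yap and Taz had been lowered were compared after 5 and after 2.5 days of osteoblast differentiation under FGF2. O9-1 is a mouse line of cranial neural crest cells, the embryonic cells that give rise to much of the bone, cartilage and connective tissue of the face and the frontal skull. The comparison used 6 of the 18 RNA-seq libraries of the series, picked by their titles: 3 replicates of Y/T dKD+FGF2 from d2.5 and 3 replicates from d5. All 6 came from wild-type O9-1 cells transfected with siRNA pools against Yap and Taz, kept in osteoblast differentiation medium and given FGF2, so that both the knockdown and FGF2 were shared by the groups. As a second arm, 6 Ctrl+FGF2 libraries (scrambled siRNA, the same medium, FGF2, 3 at d2.5 and 3 at d5) were used to ask where the course over time differed with the knockdown. No Y/T dKD libraries without FGF2 were analysed here, so FGF2 was not varied under the knockdown.

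In the labels the batch of every library is its day, and no batch holds both days. Time in culture and batch can therefore not be told apart in any d5 against d2.5 value below, and no within-batch value can be given. Within a day the 3 libraries of a group shared their batch, and nothing in the labels says that replicates were separate cultures, so that p-values measure the spread between these samples, which may be technical. The cells were sampled in bulk, where fewer cells of a type and less RNA per cell cannot be told apart.

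Yap and Taz (the latter encoded by Wwtr1) are transcriptional co-activators that enter the nucleus when the Hippo kinases are inactive and act there through the DNA-binding Tead factors. FGF2 binds FGF receptors, which signal through the ERK kinase cascade and induce their own inhibitors, among them the Sprouty proteins and the Dusp phosphatases. Mesenchymal cells of neural crest origin that become osteoblasts switch on Runx2 and Sp7, slow their division, lay down a collagen I matrix, and later produce the proteins that control its mineralization.

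The 6 libraries held 10377151 to 12770045 counts on genes, with 11450342 to 11988618 at d2.5 and 10377151 to 12770045 at d5. Between 18295 and 18745 genes had a count, and 31.0 to 34.4% of reads were unmapped or otherwise assigned to no gene. The 10 most abundant genes took 5.64 to 5.80% of gene counts at d2.5 and 11.2 to 11.6% at d5. Log2 levels correlated at 0.996 across genes between libraries of the same day and at 0.872 to 0.875 between days. By these correlations no library stood apart from its group, and outlying libraries were not tested for. Values are given as CPM, a gene's counts relative to its library's total after scaling the 6 libraries to a common composition, in the order of replicates 1, 2 and 3. Changes are log2 of d5 over d2.5 ± standard error (SE), with 3 libraries a day, and a gene is said to have risen or fallen where the Benjamini-Hochberg adjusted p of edgeR's quasi-likelihood test was under 0.05.

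The targets of the siRNAs were read first. Yap1 (ENSMUSG00000053110.13, GRCm38 chr9:7931999-8004596, minus strand) stood at 65.2, 66.2 and 70.1 CPM at d2.5 and at 74.4, 67.7 and 70.3 CPM at d5, a log2 difference of 0.08 ± 0.05 (-0.09 by total counts) with an adjusted p of 0.16. Wwtr1 (ENSMUSG00000027803.14, chr3:57455649-57575910, minus strand) was at 142, 132 and 136 CPM and then at 122, 129 and 124 CPM, and fell by 0.13 on the log2 scale (SE 0.04, adjusted p = 0.0047). The days overlapped for Yap1 and not for Wwtr1. Scaled over all 12 FGF2 libraries, Yap1 was 131 ± 3.15 CPM (SD, n = 3) in Ctrl+FGF2 and 67.8 ± 2.65 under the knockdown at d2.5, and 155 ± 5.78 against 71.0 ± 3.52 at d5. Wwtr1 was 225 ± 2.50 against 138 ± 6.33 CPM at d2.5 and 218 ± 3.25 against 125 ± 3.17 at d5. Both transcripts were thus lower in every siY/T library than in every control library of their day, at both days, and neither was near 0: the cells carried a partial knockdown throughout.

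Most genes differed between the days. Of 13394 genes tested, 10839 (80.9%) passed, 5519 (41.2%) higher at d5 and 5320 (39.7%) lower, and in 10918 genes (81.5%) the 3 libraries of one day did not overlap the 3 of the other. The calls were mostly of modest size, with a median of 0.74 in absolute log2 and 7001 of them (64.6%) under 2-fold. Changes of at least 2-fold numbered 2056 upward (15.4%) and 1782 downward (13.3%), and changes of at least 4-fold 839 and 610. The median over all genes tested was 0.01. Scaling by total counts alone moved that median by -0.162 and left 41.6% of calls higher in place of 50.9%, so that small changes are relative to the scaling used. With 4 in 5 genes passing, a count of called members says little about a gene group, and the lists below are described by their direction and median against that background. A gene silent or nearly silent at 1 day passed the filter only through the other day, so its direction was fixed in advance. Counts and medians of the lists include such genes.

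**Figure D1:**
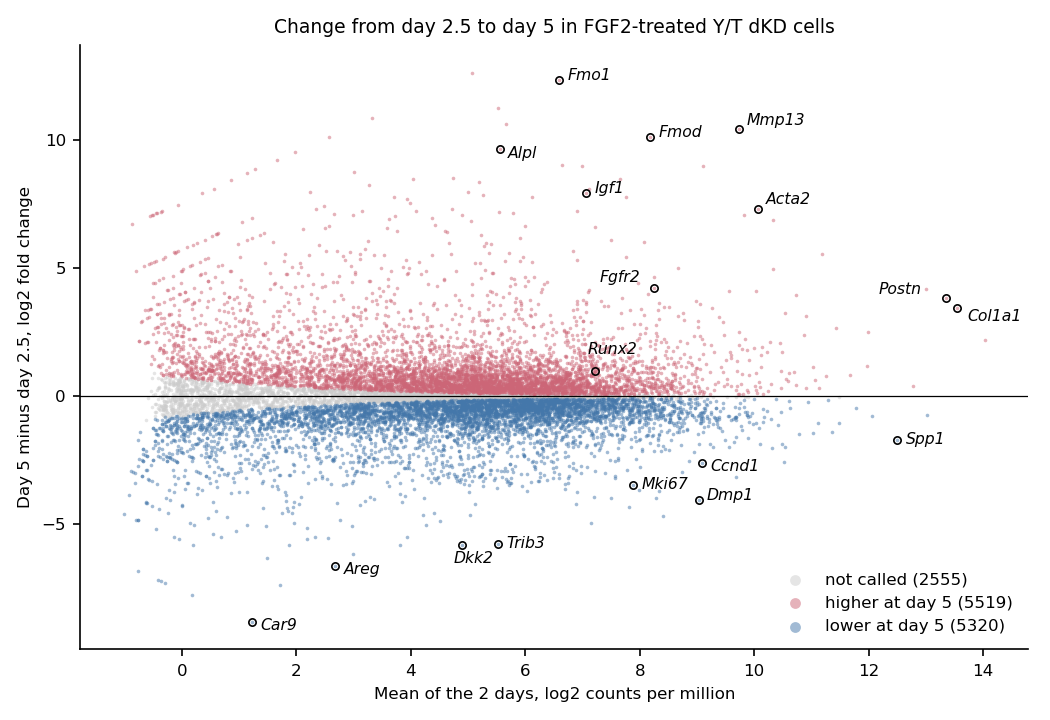
Change from d2.5 to d5 (log2, vertical axis) against mean level (log2 CPM, horizontal axis) for the 13394 genes tested in the 6 Y/T dKD+FGF2 libraries, with 5519 genes called higher and 5320 called lower in colour. The cloud is close to symmetric about 0, and genes of the bone and connective tissue matrix such as Mmp13, Fmod and Alpl lie at its upper edge while Dmp1, Trib3, Dkk2, Areg and Car9 lie at its lower edge.

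The 12 largest rises were all in genes with few or no counts at d2.5. Mmp13 (ENSMUSG00000050578.10, chr9:7272514-7283331, plus strand), the collagenase of remodelling bone and cartilage, went from 1.32, 1.10 and 1.19 CPM to 1510, 1863 and 1707 CPM, a change of 10.44 ± 0.09 (adjusted p = 6.2e-44). Fmod, the collagen-binding proteoglycan fibromodulin (chr1:134037254-134048277), went from 0.497, 0.551 and 0.478 CPM to 561, 608 and 576 CPM (10.13 ± 0.08). Alpl, the alkaline phosphatase that osteoblasts use to free phosphate for mineral (chr4:137741733-137796384), had 4 counts over the 3 d2.5 libraries and 3142 over those of d5. These 3 genes were thus at 1.32 CPM or less in every d2.5 library. That their days did not overlap was a condition for being among the 12. For Alpl the ratio was 877-fold, with a 95% counting interval of 342 to 3222, which like every such interval here covers counting error only.

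Several others had no counts at all at d2.5, for which a change is given as a bound against 3 counts over the group. C1qtnf3, a secreted C1q-related protein, was listed at 0 in the 3 d2.5 libraries and at 66.2, 69.3 and 65.0 CPM at d5, at least 834-fold higher. F13a1, the catalytic chain of the matrix-crosslinking coagulation factor XIII, was at least 249-fold higher, with 20.4, 20.9 and 18.6 CPM at d5. Fam198a, Tmem26 and Fam69c were at least 148-fold, 98.3-fold and 78.9-fold higher. In each of these 5 genes all 3 libraries of d5 had the transcript and none of d2.5 did. Fmo1, a flavin monooxygenase, had 1 count at d2.5 and 6438 at d5 (7191-fold, interval 1290 to 284072), Megf6 had 1 and 3094 (3456-fold, 620 to 136543), and Selenop, the selenium carrier of plasma, had 2 and 3377 (1886-fold, 522 to 15580). Myl9, the regulatory light chain of smooth muscle myosin, completed the 12 largest, at 0.331, 0.0787 and 0.717 CPM and then 203, 195 and 204 CPM (9.02 ± 0.11).

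The largest falls included secreted signals, stress-response genes and keratins. Car9, the hypoxia-induced carbonic anhydrase, was at 4.55, 4.72 and 4.78 CPM at d2.5 and had no counts at d5, at least 52.2-fold lower. Areg, an EGF receptor ligand and a known Yap target, had 476 counts at d2.5 and 4 at d5, a ratio of 107 (41.3 to 393). Dkk2, a secreted Wnt antagonist, went from 59.3, 54.2 and 61.7 CPM to 0.770, 1.00 and 1.43 CPM (-5.79 ± 0.13). Each was clearly expressed in every d2.5 library and close to or at 0 at d5. Trib3, a pseudokinase induced by amino acid and endoplasmic reticulum stress (chr2:152337422-152344032, minus strand), went from 87.6, 100 and 84.7 CPM to 2.22, 1.42 and 1.33 CPM (-5.75 ± 0.12). Adm2, a peptide hormone, had 208 and 2 counts (93.1-fold lower, 25.5 to 774), and Klra1, of the natural killer cell receptor family, 245 and 1 (219-fold lower, 39 to 8699). The transmembrane protein genes Tmem200a (-6.16 ± 0.24) and Tmem74 (-5.82 ± 0.17), the keratins Krt12 (-5.80 ± 0.33) and Krt20 (-5.52 ± 0.28), the cadherin Fat2 (-5.55 ± 0.30) and the ankyrin repeat gene Ankrd37 (-5.49 ± 0.28) made up the rest of the 12.

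**Figure D2:**
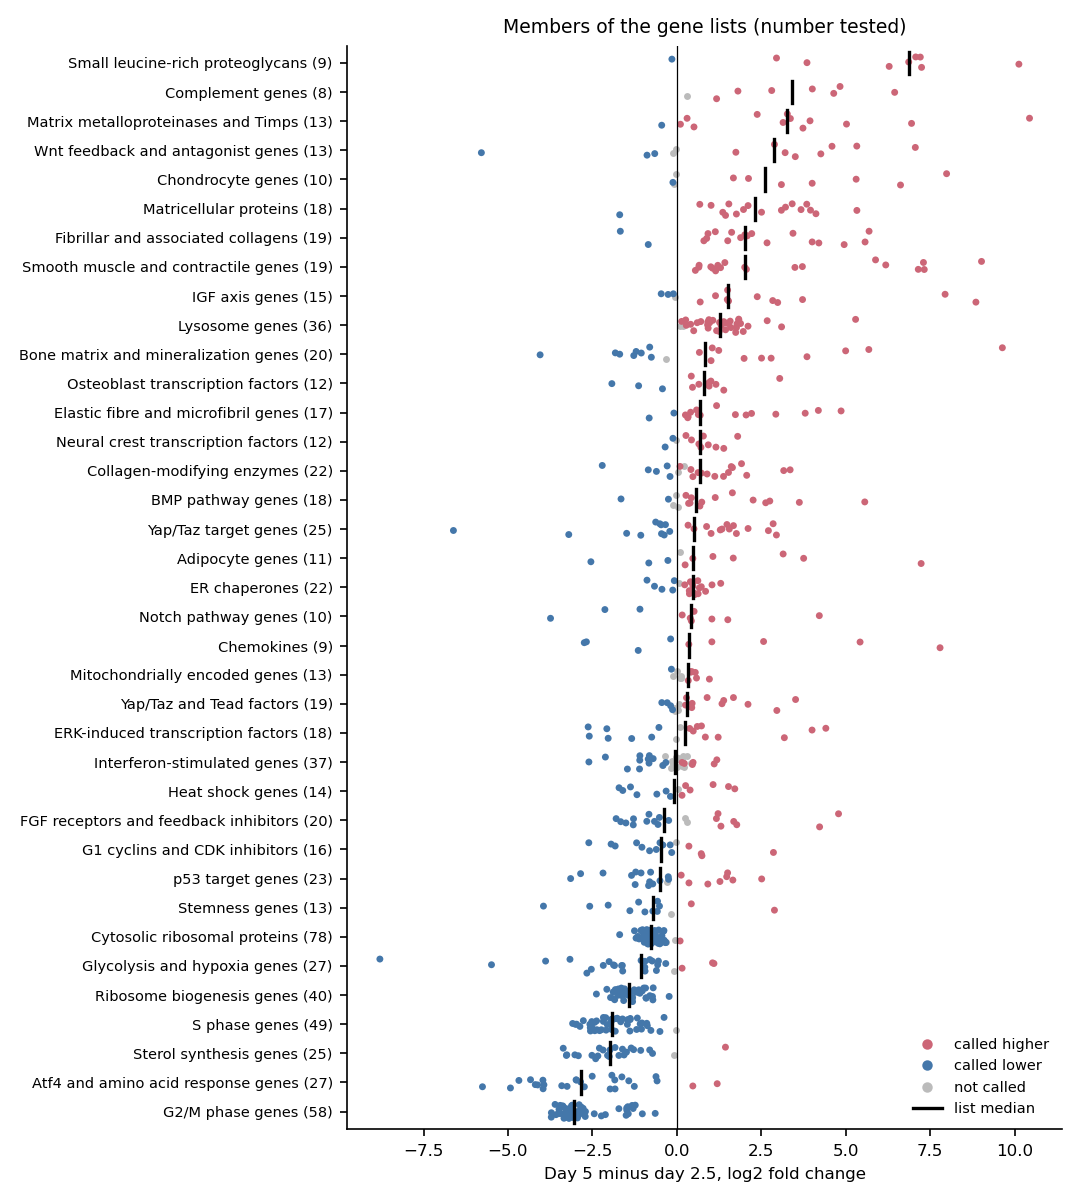
Change from d2.5 to d5 (log2, horizontal axis) of every tested member of the gene lists with at least 8 tested members, with lists ordered by their median (bar) and points coloured red where called higher, blue where called lower and grey where not called. The small leucine-rich proteoglycans lead with a median of 6.87, followed by the complement genes (3.41) and the matrix metalloproteinases and Timps (3.27). Other matrix lists lie further down, such as elastic fibre genes (0.69) and collagen-modifying enzymes (0.68). The G2/M, S phase, amino acid response and sterol lists are at the bottom, the G2/M genes with a median of -3.05.

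The osteoblast programme was first read in its transcription factors. Of 18 listed, 12 could be tested, of which 9 rose and 3 fell (median 0.80 against 0.01 for all genes), and 2 of the 6 not tested had no counts in any library. Runx2, the master regulator of the lineage (chr17:44495987-44814797, minus strand), stood at 97.1, 97.5 and 103 CPM at d2.5 and at 193, 204 and 204 CPM at d5, a rise of 1.01 ± 0.04 (adjusted p = 1.7e-23). Sp7, which acts downstream of Runx2, went from 37.9, 35.4 and 35.5 CPM to 69.6, 70.9 and 70.7 CPM (0.96 ± 0.05). Both were therefore well above detection before the later day, close to 2-fold higher at d5, and without overlap between the days. The homeobox genes Msx1 (1.16 ± 0.10) and Msx2 (1.39 ± 0.29) and the bHLH factor Twist1 (0.65 ± 0.05) rose as well. Dlx5 rose from 0.0828, 0.157 and 0.239 CPM to 1.88, 1.09 and 1.23 CPM (3.05 ± 0.48) and stayed at a low level. Among the factors that fell were Twist2 (-1.13 ± 0.12) and Atf4, which couples amino acid supply to osteoblast function, at 526, 545 and 536 CPM and then 139, 148 and 137 CPM (-1.92 ± 0.04).

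The genes of bone matrix and mineralization split. Of 20 tested among 24, 11 rose and 8 fell, with a median of 0.84. Where at least 10 counts were asked of every library, which removes genes silent at d2.5, 16 were tested, 7 rose, 8 fell, and the median was -0.54, so the direction of the list as a whole depends on that filter. Sparc, the collagen-binding osteonectin, went from 1219, 1218 and 1208 CPM to 6719, 7159 and 6865 CPM (2.51 ± 0.03), and Ibsp, the bone sialoprotein that nucleates mineral, from 83.1, 76.5 and 78.3 CPM to 136, 185 and 173 CPM (1.05 ± 0.06). Pth1r, the parathyroid hormone receptor (5.00 ± 0.15), the osteoblast proteoglycan Omd (3.85 ± 0.05) and the membrane protein Tmem119 (1.99 ± 0.04) rose with Alpl.

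Other members of the list moved the opposite way. Spp1, osteopontin, an inhibitor of mineral growth and a cell attachment protein, fell from 8965, 8564 and 8938 CPM to 2578, 2878 and 2745 CPM (-1.69 ± 0.03). Dmp1, a phosphoprotein best known from osteocytes (chr5:104202613-104214102, plus strand), fell from 1025, 928 and 1002 CPM to 52.1, 67.4 and 59.0 CPM (-4.05 ± 0.05, adjusted p = 2.6e-39). Neither gene's days overlapped. The osteocyte endopeptidase Phex (-1.82 ± 0.13), the pyrophosphate transporter Ank (-1.27 ± 0.03) and the pyrophosphate-generating enzyme Enpp1 (-0.80 ± 0.07) fell too, while Mepe was at -0.33 ± 0.30 (adjusted p = 0.31). Bglap, osteocalcin, is reported as uncertain because near-identical copies can share its reads, and it reached only 1.63, 2.43 and 1.63 CPM at d5.

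**Figure D3:**
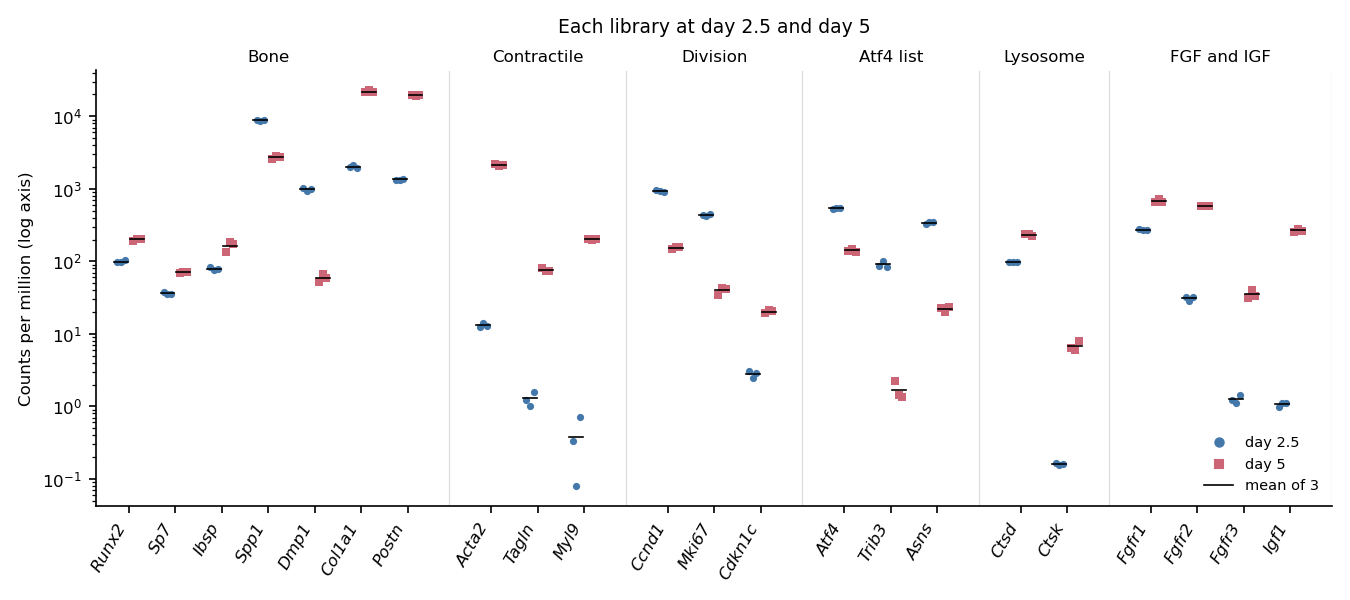
Level of named genes in each of the 6 Y/T dKD+FGF2 libraries (CPM, logarithmic axis), with d2.5 as circles, d5 as squares and the mean of 3 libraries as a line. The libraries of a day lie close together for most genes shown, but not for Myl9 at d2.5, where its level was low. Spp1, Dmp1, Ccnd1, Mki67, Atf4, Trib3 and Asns are lower at d5. Runx2, Sp7, Ibsp, Col1a1, Postn, the contractile genes, Cdkn1c, the cathepsins, the FGF receptors and Igf1 are higher.

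Collagen genes rose together and took a larger share of all counts at d5. Of 19 tested, 17 rose and 2 fell (median 2.01), and the summed level of those tested went from 15076 to 15717 CPM at d2.5 to 88020 to 93385 CPM at d5. Col1a1, the main chain of bone collagen, went from 1986, 2117 and 1964 CPM to 21535, 22851 and 21455 CPM (3.44 ± 0.03). Col3a1, of fibrous connective tissue, went from 849, 835 and 851 CPM to 14676, 16543 and 15573 CPM (4.21 ± 0.04), and Col12a1, which coats collagen I fibrils, from 89.4, 101 and 96.3 CPM to 4612, 4423 and 4630 CPM (5.57 ± 0.04). All 3 were at least 10-fold higher in every d5 library than in any d2.5 library. Col5a3 (-0.84 ± 0.12) and Col15a1 (-1.67 ± 0.10) were the members that fell.

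The proteins that organise fibrils changed most. Among the small leucine-rich proteoglycans, which bind collagen and set fibril width, 8 of the 9 tested rose, with a median of 6.87. Ogn, osteoglycin, went from 23.3, 23.4 and 18.8 CPM to 2575, 2472 and 2590 CPM (6.87 ± 0.05). Decorin (Dcn, 7.25 ± 0.08), lumican (Lum, 7.21 ± 0.12) and asporin (Aspn, 7.07 ± 0.06) rose by a like amount, whereas biglycan (Bgn) fell slightly (-0.15 ± 0.03). In the matricellular list, 17 of 18 tested rose and Spp1 fell (median 2.31). Postn, periostin, a marker of periosteum and suture mesenchyme, went from 1343, 1330 and 1376 CPM to 19535, 19043 and 19730 CPM (3.85 ± 0.03), with Tnc (5.33 ± 0.07), Tnn (3.96 ± 0.04) and Thbs1 (4.12 ± 0.04) beside it.

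Enzymes that crosslink or cleave the matrix followed. Of 22 collagen-modifying enzymes 15 rose and 5 fell (median 0.68). Lox, the lysyl oxidase that crosslinks collagen, went from 478, 455 and 480 CPM to 1826, 1720 and 1789 CPM (1.92 ± 0.03), its relative Loxl2 rose by 3.36 ± 0.04, and the procollagen peptidase Adamts2 by 3.17 ± 0.08. The hypoxia-inducible prolyl hydroxylase P4ha1 (-0.60 ± 0.04) and Loxl3 (-0.84 ± 0.04) fell. Of 13 matrix metalloproteinases and inhibitors, 12 rose (median 3.27), among them the gelatinase Mmp2 (3.15 ± 0.03), its membrane-bound activator Mmp14 (3.27 ± 0.03), Mmp11 (5.03 ± 0.05) and Mmp10 (6.95 ± 0.17), and Timp1 fell (-0.45 ± 0.04). Elastic fibre genes rose in 15 of 17 cases (median 0.69), with Mfap2 (4.86 ± 0.20) and Fbln5 (2.93 ± 0.05) the examples of largest size and Efemp1 (-0.82 ± 0.03) among the 2 that fell.

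Of 22 contractile genes listed, 19 were tested and all 19 rose, with a median of 2.01. Acta2, smooth muscle α-actin, went from 12.4, 14.3 and 12.98 CPM to 2201, 2051 and 2138 CPM (7.33 ± 0.05, adjusted p = 4.5e-47). The actin-binding proteins Tagln (5.88 ± 0.11) and Lmod1 (7.30 ± 0.15), the smoothelin gene Smtn (3.498 ± 0.04) and tropomyosin Tpm1 (2.01 ± 0.03) rose with it. Cnn1 had no counts at d2.5 and Myl9 very few. Both passed the filter only through d5, so that they could only rise, and both are counted among the 19. Srf, the factor that switches on many of these genes through the CArG box, rose from 24.7, 26.1 and 25 CPM to 52.5, 59.5 and 56.0 CPM (1.15 ± 0.06). The CArG box was looked for on both strands of RefSeq promoters (GRCm38.p6, 250 bases before to 50 after the start), and 5 of the 17 tested members with a promoter held it, against 1.56% of tested genes and 1.63% of all 32851 promoters. The promoters of Myl9 (chr2:156775291-156775324, plus strand) and Srf itself (chr17:46556223-46556256, minus strand) are shown with the box in capitals, since Myl9 had the largest rise of the 5 and Srf is the factor concerned:
Myl9: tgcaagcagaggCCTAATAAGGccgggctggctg
Srf: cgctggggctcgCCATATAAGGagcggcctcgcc
Here and below a match of letters is a description of the promoter and not evidence of binding or of a cause, and the motifs were picked after the lists' values had been seen.

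Markers of other lineages gave a mixed picture. Of 10 chondrocyte genes tested, 7 rose and 1 fell: Col2a1, cartilage collagen, went from 3.23, 2.91 and 2.79 CPM to 295, 300 and 288 CPM (6.62 ± 0.07), and Col9a2 (7.99 ± 0.15) and Matn4 (5.31 ± 0.22) rose, but the regulator Sox9 fell by only 0.11 on the log2 scale (SE 0.05, adjusted p = 0.038, and 0.081 by DESeq2) and aggrecan (Acan) was at -0.07 ± 0.06 (adjusted p = 0.24). Of 11 adipocyte genes tested, 7 rose and 3 fell, with lipoprotein lipase (Lpl) at 7.23 ± 0.20, Klf15 at 3.15 ± 0.18, Fabp4 at -2.54 ± 0.11 and the regulator Pparg at -0.26 ± 0.10 (adjusted p = 0.021, and 0.067 by DESeq2). Neuronal genes were scarce and fell, with all 3 tested lower and a summed level of those 3 of 17.7 to 19.6 CPM before and 2.76 to 3.34 CPM after. The 2 epithelial genes tested went in sum from 16.1 to 17.5 CPM down to 0.60 to 0.92 CPM, mostly through the keratin Krt19 (-5.07 ± 0.22). Both passed the filter only through d2.5, so that they could only fall. Of 15 glial genes 4 were tested, 2 higher and 1 lower, and those 4 rose in sum from 126 to 132 CPM to 264 to 271 CPM. Only 1 leukocyte gene was tested, at 0.83 to 1.51 CPM and then 3.93 to 4.62 CPM. Of the 11 not tested, 6 had 0 counts. Among 12 endothelial genes the 2 tested summed to 4.22 to 5.43 CPM and then 2.40 to 2.45 CPM.

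Transcription factors of the neural crest itself were present only in part: of 20 listed 12 were tested, 9 rose and 2 fell, and 6 of the 8 not tested had no counts, in a line labelled neural crest. Sox10, Foxd3 and Tfap2b, which define early migratory crest, were among those not tested. Pax3 (1.80 ± 0.15), Ets1 (0.93 ± 0.05), Snai1 (0.79 ± 0.07) and Tfap2a (0.43 ± 0.06) rose. Genes used in this field as marks of stemness went the other way in the main, with 10 of 13 tested lower and 2 higher (median -0.71). Hmga2, a chromatin protein of embryonic mesenchyme, fell from 2613, 2433 and 2529 CPM to 398, 439 and 432 CPM (-2.58 ± 0.04), and its relative Hmga1 (-3.95 ± 0.04), Myc (-2.03 ± 0.05) and Klf4 (-1.39 ± 0.06) fell too. Axin2, a Wnt target and a marker of suture stem cells, rose from 0.745, 0.551 and 0.398 CPM to 4.53, 4.68 and 3.37 CPM (2.89 ± 0.28). It had 21 counts over the d2.5 libraries and passed the filter only through d5, so that it could only rise.

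Cell cycle genes fell almost as a body. Of 58 G2/M genes all 58 fell, with a median of -3.05, and their summed level went from 9285 to 9715 CPM down to 1820 to 2007 CPM. Of 49 S phase genes 48 fell, with a median of -1.93, and E2f1, the member left over, did not pass (-0.03 ± 0.08, adjusted p = 0.77). Mki67, the proliferation antigen, went from 429, 425 and 446 CPM to 34.4, 43.3 and 42.1 CPM (-3.44 ± 0.05). Top2a, the topoisomerase of dividing chromosomes (-2.94 ± 0.04), cyclin Ccnb1 (-3.18 ± 0.06) and its kinase partner Cdk1 (-2.23 ± 0.05) and the mitotic kinase Plk1 (-3.49 ± 0.10) fell with it. Against a background of 39.7% of genes lower, the phase lists were lower in every member but E2f1. Mitotic genes were still detected in all 3 d5 libraries.

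The replication helicase genes Mcm5, at 151, 154 and 142 CPM and then 24.6, 28.2 and 24.6 CPM (-2.52 ± 0.05), and Mcm6, at 314, 295 and 298 CPM and then 54.8, 51.2 and 56.9 CPM (-2.48 ± 0.04), were typical of the S phase list. The E2F site, searched as TTTNGCGC on both strands, was in 10 of the 36 tested S phase genes with a promoter, in 2.87% of tested genes and in 1.38% of all promoters. It is shown in capitals in the promoters of both helicase genes, Mcm5 at chr8:75109344-75109375 (plus strand) and Mcm6 at chr1:128359796-128359827 (minus strand):
Mcm5: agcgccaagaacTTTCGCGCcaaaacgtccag
Mcm6: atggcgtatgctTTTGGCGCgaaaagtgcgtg
Both promoters also hold the same letters on the other strand, overlapping the site shown.

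Regulators of entry into the cycle went both ways. Of 16 G1 cyclins and CDK inhibitors tested, 11 fell and 4 rose. Cyclin D1 (Ccnd1), which growth factors induce, fell from 956, 928 and 916 CPM to 149, 155 and 156 CPM (-2.61 ± 0.03), whereas Ccnd3 rose by 0.72 ± 0.05. Of the inhibitors, Cdkn1c rose from 3.06, 2.44 and 2.87 CPM to 19.3, 21.1 and 20.6 CPM (2.86 ± 0.13) and Cdkn1b by 0.36 ± 0.04, and Cdkn1a fell (-0.50 ± 0.04). The p53 targets showed no common direction, with 8 of 23 higher and 14 lower, among them Sesn1 (2.51 ± 0.06), Eda2r (-3.14 ± 0.09), Ddit4 (-2.18 ± 0.06) and Mdm2 (-0.71 ± 0.04).

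The amino acid response controlled by Atf4 was lower in nearly all its members at d5. Of 27 genes 25 fell, with a median of -2.85, and the summed level went from 4710 to 5022 CPM down to 863 to 895 CPM. Asns, asparagine synthetase, fell from 324, 354 and 346 CPM to 22.4, 20.2 and 23.5 CPM (-3.96 ± 0.05). Slc7a11, the cystine importer, fell from 276, 272 and 282 CPM to 6.76, 11.8 and 8.58 CPM (-4.93 ± 0.07). The serine synthesis enzymes Psat1 (-4.68 ± 0.05) and Phgdh (-2.50 ± 0.04) and the leucine importer Slc7a5 (-4.33 ± 0.05) fell likewise. Nupr1, a stress-induced chromatin protein, fell from 39.1, 37.2 and 36.3 CPM to 11.98, 15.6 and 14.5 CPM (-1.42 ± 0.08). Transcripts of the genes named for synthesis and import of amino acids and for stress proteins were thus lower together. The members that rose were Atf3 (1.20 ± 0.10) and Cebpb (0.47 ± 0.05), transcription factors that other signals also induce.

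The C/EBP-ATF response element that Atf4 binds, searched as TGATGNAA on both strands, was in 9 of the 23 members with a promoter, in 2.61% of tested genes and in 3.97% of all promoters. It is shown in capitals for 4 members that fell, Slc7a11 (chr3:50443660-50443691, minus strand), Asns (chr6:7693213-7693244, minus strand), Chac1 (chr2:119351037-119351068, plus strand) and Nupr1 (chr7:126625561-126625592, minus strand), with the last pair reading on the opposite strand to the gene:
Slc7a11: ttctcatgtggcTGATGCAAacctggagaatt
Asns: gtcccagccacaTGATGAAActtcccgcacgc
Chac1: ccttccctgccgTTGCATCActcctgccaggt
Nupr1: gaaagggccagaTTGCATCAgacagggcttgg
Chac1, which degrades glutathione, fell by 3.96 on the log2 scale (SE 0.13). Atf3, which rose, holds the element as well.

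Genes of glycolysis, sterol synthesis and ribosome production were lower too. Of 27 glycolysis and hypoxia genes 23 fell and 3 rose (median -1.06). Phosphoglycerate kinase (Pgk1) fell from 1515, 1474 and 1471 CPM to 168, 165 and 165 CPM (-3.16 ± 0.03), and Gapdh (-2.005 ± 0.03) and Ldha (-2.18 ± 0.03) fell, while Pfkfb3 (1.10 ± 0.14) and Hk2 (0.16 ± 0.05, but -0.0057 by total counts), which feed the pathway, were among the members that rose. Of 25 sterol genes 23 fell (median -1.98), including the synthase Hmgcs1 (-1.49 ± 0.03), the epoxidase Sqle (-2.40 ± 0.04) and the isomerase Idi1 (-3.26 ± 0.07), and only Ebp rose (1.44 ± 0.05). The sterol regulatory element, searched as TCACNCCAC on both strands, was in 1 of the 17 sterol genes with a promoter (5.88%), in 1.35% of tested genes and in 1.24% of all promoters. All 40 ribosome biogenesis genes fell (median -1.40), with nucleolin (Ncl) going from 2363, 2291 and 2484 CPM to 618, 593 and 621 CPM (-1.96 ± 0.03). Of 78 cytosolic ribosomal protein genes 74 fell and 1 rose, by a smaller median of -0.77, and their sum went from 49446 to 50408 CPM down to 28800 to 29431 CPM. Single ribosomal protein genes are uncertain, since their many pseudogenes can share reads.

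Lysosome genes formed the opposite case. Of 36 tested, 34 rose and none fell, with a median of 1.29, and the summed level went from 5446 to 5554 CPM up to 12976 to 13122 CPM. The protease Ctsd went from 97.2, 98.9 and 96.5 CPM to 240, 236 and 227 CPM (1.27 ± 0.04), and the protective protein Ctsa from 141, 144 and 135 CPM to 375, 367 and 360 CPM (1.39 ± 0.04). Ctsb (2.11 ± 0.03), the collagen-degrading Ctsk (5.29 ± 0.32), the hexosaminidase chain Hexa (2.68 ± 0.04) and the membrane protein Lamp1 (0.92 ± 0.03) rose, whereas Tfeb, the factor that coordinates the list through the CLEAR element, was at 0.18 ± 0.13 (adjusted p = 0.19). The element, searched as TCACGTGA, was in 5 of the 28 members with a promoter, in 2.30% of tested genes and in 0.974% of all promoters. It is shown in capitals in the promoters of both genes, Ctsd at chr7:142387907-142387938 (minus strand) and Ctsa at chr2:164833748-164833779 (plus strand):
Ctsd: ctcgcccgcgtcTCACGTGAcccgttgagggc
Ctsa: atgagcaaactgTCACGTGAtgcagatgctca

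Chaperones of the endoplasmic reticulum rose in 16 of 22 cases and fell in 5 (median 0.47), with Dnajb9 (1.30 ± 0.06), Xbp1, the factor of secretory capacity (1.04 ± 0.04), and calreticulin (Calr, 0.85 ± 0.03) higher and Herpud1 (-0.88 ± 0.05) lower. Cytosolic and mitochondrial heat shock genes divided, 6 higher and 7 lower of 14, with Hsp90aa1 at -1.60 ± 0.03 and Hspd1 at -1.71 ± 0.03. The 13 mitochondrially encoded genes had 7 higher and 1 lower, summing to 4536 to 5546 CPM at d2.5 and 5845 to 6292 CPM at d5. With total counts in place of composition scaling these were 6 higher and 3 lower.

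The FGF pathway changed at the level of its receptors and, in the opposite direction, of several of its feedback genes. Fgfr1 went from 278, 273 and 271 CPM to 662, 715 and 654 CPM (1.31 ± 0.03). Fgfr2, the receptor altered in several craniosynostoses (chr7:130162451-133123350, minus strand), went from 32.02, 28.3 and 32.3 CPM to 579, 576 and 582 CPM (4.23 ± 0.04, adjusted p = 6.3e-42), and Fgfr3 from 1.24, 1.10 and 1.43 CPM to 31.5, 40.0 and 33.5 CPM (4.79 ± 0.15). All 3 receptors were higher in every d5 library. The adaptor Frs2 (1.22 ± 0.04) and the decoy receptor Fgfrl1 (1.17 ± 0.06) rose with them. In the whole list of 20 tested genes, however, 7 rose, all by at least 2-fold, and 11 fell (median -0.38). Several inhibitors that the pathway induces were among those that fell: Dusp6 (-1.28 ± 0.05), Dusp4 (-1.80 ± 0.09), Spred1 (-0.89 ± 0.04), Spry4 (-0.56 ± 0.06) and Spry2 (-0.52 ± 0.07). Spry1 was at 0.29 ± 0.18 (adjusted p = 0.15).

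Transcription factors that ERK induces went both ways. Of 18, 9 rose and 7 fell (median 0.23). The Ets factors Etv4 (-2.07 ± 0.05) and Etv5 (-2.59 ± 0.05) and the AP-1 member Fosl1 (-2.62 ± 0.09) fell with Myc, while the immediate early gene Egr1 rose from 17.4, 16.1 and 17.8 CPM to 149, 163 and 153 CPM (3.18 ± 0.06), with Egr2 (4.41 ± 0.30) and Fos (4.01 ± 0.14), and Jun was at -0.01 ± 0.05 (adjusted p = 0.81).

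Other growth factor systems rose in the main. Igf1, a ligand that osteoblasts secrete, went from 0.993, 1.10 and 1.11 CPM to 253, 280 and 266 CPM (7.94 ± 0.09), and 11 of the 15 IGF axis genes tested rose and 3 fell (median 1.505), with the adaptor Irs1 at 2.99 ± 0.08, the carrier Igfbp4 at 2.38 ± 0.03 and the protease Pappa that cleaves it at 3.72 ± 0.15. Igfbp5 had 0 counts at d2.5 and 164 at d5, at least 61.1-fold higher. Of 18 BMP pathway genes tested 13 rose and 2 fell (median 0.56), with the ligands Bmp4 (3.63 ± 0.12) and Bmp3 (5.57 ± 0.21) and the antagonists Grem1 (1.14 ± 0.03) and Chrd (2.75 ± 0.20) higher and the BMP target Id1 lower (-1.65 ± 0.08). The ligands and antagonists named had risen together, while Id1 had fallen and Id3, of the same list, had risen slightly (0.27 ± 0.04). Among 13 Wnt feedback and antagonist genes tested, 8 rose and 3 fell (median 2.89), with the secreted antagonists Sfrp1 (4.596 ± 0.08), Frzb (5.33 ± 0.16) and Dkk3 (3.51 ± 0.04) higher and Dkk2 lower. With at least 10 counts in every library that list kept 7 genes, 3 higher and 2 lower, with a median of -0.02. Of 10 Notch genes 7 rose and 3 fell (4 and 3 by total counts): the target Hey1 rose (4.22 ± 0.16) and the target Hes1 fell (-1.09 ± 0.11), and the ligand Jag1 rose (1.04 ± 0.06) and the ligand Jag2 fell (-3.74 ± 0.34), as did Rbpj, their common DNA-binding factor (-2.13 ± 0.04).

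The genes around Yap and Taz themselves were mostly higher. Of 19 factors and partners tested 11 rose and 4 fell (median 0.29), and 10 rose and 7 fell by total counts. Vgll3, a Tead cofactor, went from 29.3, 27.2 and 27.7 CPM to 324, 310 and 330 CPM (3.52 ± 0.05), and Vgll4, which competes with Yap for Tead, from 23.7, 22.5 and 25.5 CPM to 100, 107 and 101 CPM (2.11 ± 0.06). The Yap-binding scaffold Amot went from 101, 99.3 and 97.5 CPM to 786, 753 and 784 CPM (2.96 ± 0.04). These cofactors rose several-fold at Yap1 and Wwtr1 levels that moved little. Of the Tead factors, Tead3 rose from 21.0, 19.8 and 19.1 CPM to 51.9, 52.9 and 52.0 CPM (1.39 ± 0.06), Tead2 (0.45 ± 0.05) and Tead4 (0.26 ± 0.05) rose less, and Tead1 fell (-0.44 ± 0.03). The 25 known target genes went both ways, 14 higher and 11 lower (median 0.51). Ccn1 rose from 129, 126 and 119 CPM to 528, 554 and 533 CPM (2.11 ± 0.04) and Ccn2 from 184, 170 and 171 CPM to 628, 559 and 597 CPM (1.76 ± 0.04), both being secreted matricellular proteins, and Nt5e (2.95 ± 0.05) and Tgfb2 (2.85 ± 0.05) rose more. Ankrd1 (-0.34 ± 0.10), Axl (-0.46 ± 0.03), the mitotic gene Birc5 (-3.20 ± 0.07) and Areg fell.

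Among immune genes, 8 of 20 complement genes could be tested, of which 7 rose and none fell (median 3.41). Of the 12 not tested, 7 had no counts in any of the 6 libraries. The classical pathway protease C1s1 went from 0.662, 0.630 and 0.318 CPM to 45.8, 47.6 and 50.2 CPM (6.45 ± 0.15), and its inhibitor Serping1 from 5.79, 5.04 and 4.86 CPM to 79.5, 87.8 and 86.2 CPM (4.01 ± 0.08). C1s1 passed the filter only through d5, so that it could only rise. Of 9 chemokines tested, 5 rose and 4 fell. Cxcl12, which stromal cells use to retain blood-forming cells, went from 10.5, 9.92 and 9.16 CPM to 431, 403 and 439 CPM (5.43 ± 0.06), with Ccl8 (7.79 ± 0.24) and Ccl7 (2.57 ± 0.18), and Cxcl10 (-2.74 ± 0.27) and Ccl2 (-1.14 ± 0.16) fell. Interferon-stimulated genes had 6 higher and 13 lower of 37 and a median of -0.04, close to that of all genes. Oas3, which makes the RNase-activating oligoadenylate, was at 3.48, 4.33 and 2.71 CPM and then at 0.770, 0.251 and 0.715 CPM (-2.60 ± 0.31), and Ifit1, which binds foreign RNA, at 13.2, 11.7 and 13.9 CPM and then at 6.59, 5.605 and 5.92 CPM (-1.10 ± 0.12), while Ifi27 (1.11 ± 0.08) and Parp14 (1.19 ± 0.13) rose and Ifit2 was at 0.03 ± 0.07 (adjusted p = 0.74).

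Whether the course over time depended on the knockdown was tested gene by gene as the d5 against d2.5 change under siY/T minus that in Ctrl+FGF2, in one fit of the 12 FGF2 libraries. Both arms have the same confounding of day with batch, which leaves their difference free of any batch effect that acted alike on both arms. The arms followed much the same course: across the 13911 genes of that fit the changes correlated at r = 0.946 (a description across genes, which are not independent replicates) and 90.5% had the same sign. Of 13911 genes tested for a difference, 3340 (24.0%) passed, 1777 (12.8%) with a higher value under the knockdown and 1563 (11.2%) with a lower one. In 2803 of the 3340 the change had the same sign in both arms, and in 537 it had opposite signs. Only 345 of these differences reached 2-fold, 148 of them higher and 197 lower.

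**Figure D4:**
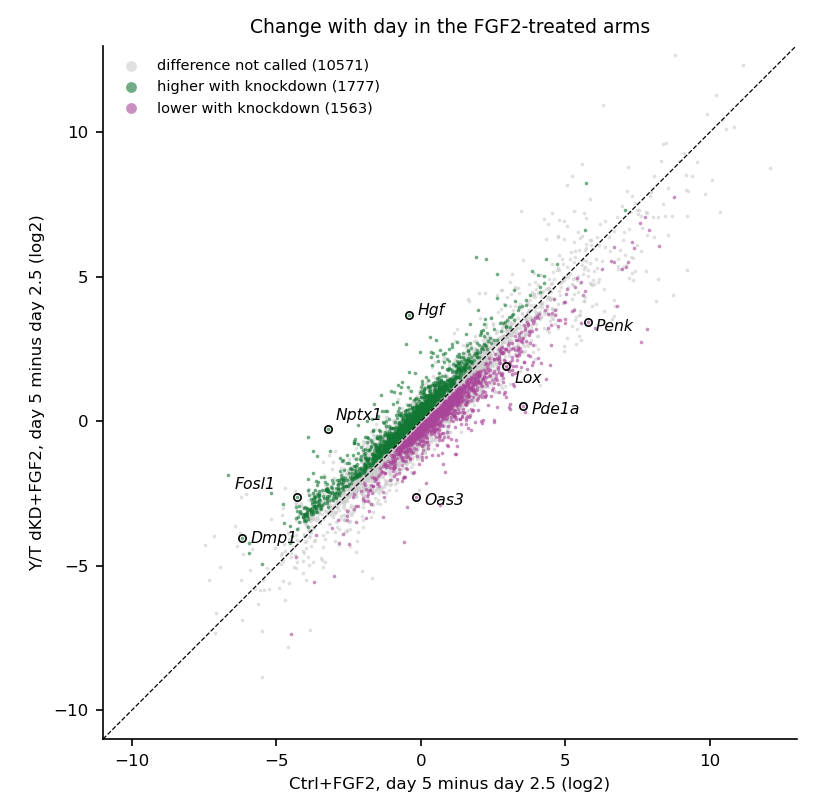
Change from d2.5 to d5 in Ctrl+FGF2 (log2, horizontal axis) against the change in Y/T dKD+FGF2 (log2, vertical axis) for the 13911 genes tested, with the dashed line marking equal change, 1777 genes called higher under the knockdown in green and 1563 called lower in purple. The cloud follows the line (r = 0.946 over these 13911 genes), and Hgf, Dmp1, Fosl1 and Nptx1 lie above it while Lox, Penk, Pde1a and Oas3 lie below.

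Among FGF feedback genes and ERK-induced factors the arms parted, mostly toward higher values under the knockdown. Dusp4 (chr8:34807297-34819894, plus strand), a nuclear ERK phosphatase, was at 31.4, 33.2 and 34.4 CPM in Ctrl+FGF2 at d2.5 and at 2.60, 2.56 and 2.19 CPM at d5. Under siY/T it was at 30.0, 32.5 and 32.8 CPM and then at 9.10, 8.96 and 9.23 CPM. The groups overlapped at d2.5, and the later fall was shallower with the knockdown, by 1.94 ± 0.16 (adjusted p = 1.8e-10). Dusp6, the cytoplasmic ERK phosphatase, went from 128, 130 and 129 CPM to 29.6, 26.1 and 26.5 CPM in controls and from 151, 144 and 143 CPM to 56.8, 63.3 and 58.2 CPM under the knockdown, a difference of 0.94 ± 0.07. Spry4 went from 44.1, 41.2 and 44.0 CPM to 15.8, 13.2 and 16.4 CPM and, with siY/T, from 44.6, 42.8 and 41.8 CPM to 27.7, 29.5 and 30.0 CPM (difference 0.95 ± 0.10). For each of these genes the arms stood near each other at d2.5 and apart at d5. Etv4 went from 135, 130 and 132 CPM to 11.6, 9.84 and 10.6 CPM in controls and from 130, 129 and 129 CPM to 31.4, 30.8 and 29.3 CPM under the knockdown (1.55 ± 0.09, adjusted p = 3.6e-14). Fosl1 went from 88.1, 98.1 and 93.3 CPM to 5.67, 3.22 and 5.56 CPM and from 72.6, 70.3 and 59.0 CPM to 9.70, 12.1 and 10.6 CPM (1.65 ± 0.18).

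In the whole FGF list 9 of 20 differences were higher and 3 lower (median 0.23), and in the ERK-induced factors 14 of 18 were higher and none lower (median 0.85, against a median of -0.0024 over all genes). The control arm's own median change in the latter list was -0.69. The receptors did not share one direction, with a difference of 0.39 ± 0.05 for Fgfr1 and -0.40 ± 0.08 for Fgfr2, and one of 0.26 ± 0.43 (adjusted p = 0.73) for Fgfr3. For Jun, whose level did not pass the test between days under the knockdown, the difference was 0.88 ± 0.07, and for Egr1 it was 0.66 ± 0.10.

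The interferon-stimulated genes parted the other way. Of 37, 27 had a lower value under the knockdown and none a higher one, with a median difference of -0.85 and a control median of 0.55. Ifit2 went from 22.4, 22.4 and 25.8 CPM to 45.2, 55.1 and 53.7 CPM in controls, and from 26.3, 25.8 and 27.5 CPM to 27.3, 24.7 and 28.8 CPM under the knockdown, so that the rise was seen in the control arm and the knockdown days overlapped (difference -1.11 ± 0.11, adjusted p = 6.0e-09). Oas3 was at 3.16, 2.96 and 2.77 CPM and 2.14, 2.98 and 2.73 CPM in controls, and at 3.54, 4.33 and 2.74 CPM and then 0.773, 0.251 and 0.718 CPM with siY/T (-2.44 ± 0.39, adjusted p = 1.9e-05). Ifit1 was at 6.98, 9.03 and 8.32 CPM and 6.79, 5.95 and 6.92 CPM in controls against 13.4, 11.7 and 14.1 CPM and 6.61, 5.61 and 5.95 CPM with siY/T, where the arms differed at d2.5 rather than at d5 (-0.80 ± 0.18). With DESeq2 the list count was 19 lower and none higher. The interferon-stimulated response element, searched as GAAA repeated after a gap of 2 bases on both strands, was in 16 of the 29 members with a promoter, in 3.61% of tested genes and in 3.44% of all promoters. It is shown in capitals for Oas3, the member with the largest fall, and for Ifit1, since both fell with the days apart. Their windows are Oas3 (chr5:120777713-120777746, minus strand) and Ifit1 (chr19:34640773-34640806, plus strand, element on the opposite strand):
Oas3: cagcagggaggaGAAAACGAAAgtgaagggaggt
Ifit1: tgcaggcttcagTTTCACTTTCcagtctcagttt

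**Figure D5:**
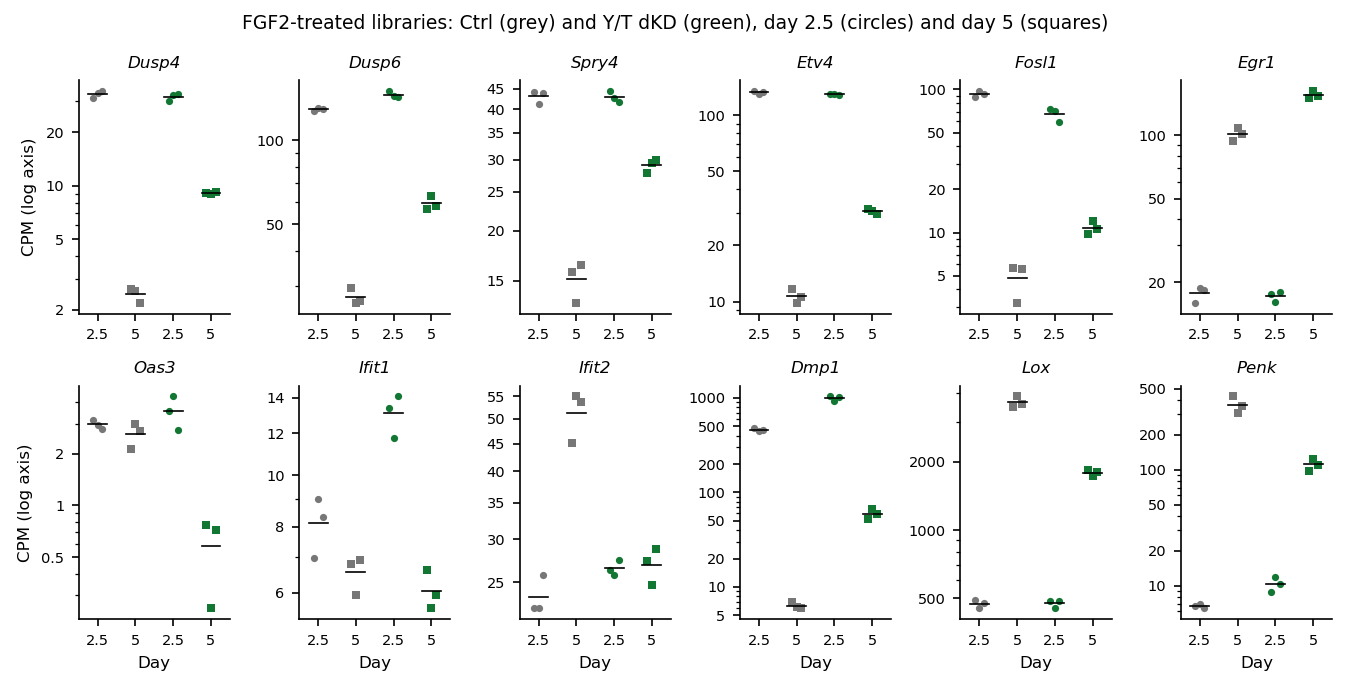
Level of 12 genes (CPM scaled over 12 libraries, logarithmic axis) in each Ctrl+FGF2 (grey) and Y/T dKD+FGF2 (green) library at d2.5 (circles) and d5 (squares), 3 libraries a group. At d5 the knockdown libraries lie above the controls for Dusp4, Dusp6, Spry4, Etv4, Fosl1 and Dmp1 and below them for Oas3, Ifit2, Lox and Penk.

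Matrix and bone genes differed one by one. Dmp1 was at 476, 451 and 460 CPM in controls and fell to 6.88, 6.12 and 5.92 CPM, and under siY/T fell from 1044, 929 and 1013 CPM to 52.3, 67.5 and 59.3 CPM, a shallower fall by 2.14 ± 0.12 (adjusted p = 4.3e-14). Ibsp was at 42.7, 40.9 and 41.7 CPM and then 47.5, 22.4 and 30.6 CPM in controls, against 84.6, 76.6 and 79.2 CPM and then 136, 185 and 173 CPM with siY/T (1.37 ± 0.17). Both bone genes were higher in every knockdown library than in every control library of the same day. Lox was at 494, 452 and 479 CPM and then 3475, 3878 and 3582 CPM in controls, and rose less with siY/T, from 487, 455 and 486 CPM to 1832, 1721 and 1797 CPM (-1.03 ± 0.05). Tgfbi, a collagen-binding matricellular protein, fell in controls, from 288, 275 and 281 CPM to 159, 159 and 160 CPM, and rose with siY/T, from 242, 241 and 250 CPM to 382, 389 and 398 CPM (1.49 ± 0.05). As lists, bone matrix genes had 7 of 20 differences higher and 3 lower (median 0.14), and collagens 11 of 19 higher and 2 lower (0.32). Chondrocyte genes had 5 of 11 lower and none higher (-0.68). Over all genes tested, 12.8% of differences were called higher and 11.2% lower. Runx2 (0.04 ± 0.06, adjusted p = 0.65) and Sp7 (0.19 ± 0.11, adjusted p = 0.22) had no difference that passed.

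Of the other lists, sterol genes had 14 of 25 differences lower and 2 higher (median -0.34), ribosome biogenesis 21 of 40 higher and none lower (0.18), and endoplasmic reticulum chaperones 10 of 22 higher and none lower. S phase genes had 28 of 49 higher and 1 lower (median 0.46) and G2/M genes 34 of 58 higher and 2 lower (0.50), so the fall of cell cycle genes was shallower under the knockdown. This count leans on particular libraries: for G2/M it was 47 and 1 (median 0.84) without Ctrl+FGF2 d5 replicate 1, 18 and 2 (0.23) without Ctrl+FGF2 d5 replicate 2, 22 and 1 without Y/T dKD+FGF2 d5 replicate 2, and 12 and 1 with DESeq2. Mitochondrially encoded genes had 7 of 13 differences lower and none higher (median -0.23). Among the known Yap and Taz targets 6 differences of 25 were higher, such as F3 (0.91 ± 0.07), Ccn1 (0.52 ± 0.05) and Ccn2 (0.49 ± 0.06), and 6 were lower, such as Wwc1 (-1.43 ± 0.15). For Yap1 itself the difference was -0.17 ± 0.06 (adjusted p = 0.047), and for Wwtr1 -0.09 ± 0.05 (adjusted p = 0.23).

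The largest differences by size were in genes of low level at one of the days. Hgf, hepatocyte growth factor, was under 1 CPM in all 6 control libraries and at d2.5 under the knockdown, and reached 6.18, 6.53 and 7.48 CPM at d5 with siY/T (4.09 ± 0.53, adjusted p = 6.8e-07). Nptx1, a neuronal pentraxin, fell from 5.97, 6.07 and 6.43 CPM to 0.651, 0.496 and 0.820 CPM in controls and was at 4.38, 5.83 and 5.39 CPM and then 4.47, 4.18 and 4.41 CPM with siY/T (2.96 ± 0.29). Penk, the enkephalin precursor, rose from 6.62, 6.96 and 6.36 CPM to 431, 306 and 354 CPM in controls and from 8.84, 11.97 and 10.3 CPM to 98.0, 125 and 110 CPM with siY/T (-2.35 ± 0.23). Each of these 3 genes had non-overlapping arms at d5.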

How the data were processed

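Poly(A) RNA of O9-1 cells was turned into libraries with a SMARTER mRNA-Seq kit. For each library the authors deposited unnormalized counts of reads by gene, in the layout that STAR writes, and their processing notes name FastQC, STAR, Picard, featureCounts and mm10 without versions or roles. The fourth column was used, which held 96.2 to 96.4% of stranded counts in the 6 libraries, while rows for unassigned reads (31.0 to 34.4% of reads) stayed out of library sizes and tests. Gene symbols and coordinates were taken from GENCODE M21 (GRCm38), to which 55154 of 55335 identifiers matched, and promoters from RefSeq (GRCm38.p6), which 9385 of the tested genes had.

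Genes kept by filterByExpr were scaled by TMM and tested with edgeR 4.0.16 (R 4.3.3, quasi-likelihood F test, Benjamini-Hochberg adjusted p under 0.05), d5 against d2.5 in 6 libraries, and as the difference between arms in 12. SE is the absolute log2 fold change over the square root of F. The scripts were tested on simulated counts. The alternatives were DESeq2 1.42.0, other scalings, filters and thresholds, the unstranded counts, a replicate block, all 18 libraries in 1 fit and leaving out each library.

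Named are Yap1 and Wwtr1, the 12 largest rises and 12 largest falls (only called genes whose days did not overlap and whose mean log2 CPM reached 1), up to 4 largest called members of each list, and the 6 largest differences each way; other members named as examples were picked with their values seen. The libraries, the 42 gene lists (979 symbols, 800 of them tested) and the tests were chosen with earlier results of these data known. Some members are not reported here. For symbols with more than 1 identifier the gene with the longest exons was used.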

Additional observations from a re-analysis of the deposited data

Results flagged for a closer look

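The genes below had a d5 against d2.5 change that differed between the knockdown and the Ctrl+FGF2 arm by the test of the difference (edgeR, 12 libraries, adjusted p under 0.05) and are the ones with the largest differences, or among the largest falls between days. Higher under the knockdown were Hgf (4.09), Nptx1 (2.96), the ubiquitin ligase March4 (2.72), the protease inhibitor Serpinb2 (2.72), the secreted factor Ndnf (2.51, adjusted p = 0.043) and the ERK phosphatase Dusp2 (2.41), all as log2 differences. March4 was at 14.7, 13.9 and 15.8 CPM and then 0.930, 1.16 and 1.18 CPM in controls, against 14.3, 15.1 and 13.1 CPM and then 6.96, 7.03 and 6.87 CPM with siY/T. Dusp2 was at 5.54, 5.26 and 6.77 CPM and then 0.651, 0.331 and 0.456 CPM in controls, against 8.25, 7.72 and 6.60 CPM and then 3.26, 3.35 and 3.18 CPM. In both genes the arms lay near each other at d2.5 and apart at d5. Serpinb2 fell from 10.9, 11.1 and 11.6 CPM to 0.279, 0.248 and 0.364 CPM in controls and from 15.8, 15.1 and 16.5 CPM to 2.23, 3.43 and 2.77 CPM with siY/T.

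Lower under the knockdown were the phosphodiesterase Pde1a (-3.00), Klra1 (-2.87), the actin-associated Limch1 (-2.80), the acyl-CoA synthetase Acsl6 (-2.48), Oas3 (-2.44), Penk (-2.35) and the cadherin Fat2 (-1.88). Pde1a rose in controls from 0.647, 0.444 and 0.744 CPM to 7.35, 8.10 and 6.10 CPM and was at 0.337, 1.10 and 0.402 CPM and then 0.859, 0.586 and 1.33 CPM with siY/T, too low to be tested between days in the 6 libraries alone. Acsl6 was at 1.29, 0.963 and 1.22 CPM and then 11.9, 7.61 and 10.2 CPM in controls, against 1.18, 1.42 and 0.966 CPM and then 1.37, 1.93 and 2.15 CPM. Limch1 rose in both arms, from 0.503, 0.370 and 0.744 CPM to 32, 40.8 and 35.8 CPM in controls and from 1.26, 0.945 and 0.724 CPM to 10.5, 9.21 and 7.79 CPM with siY/T. The calls for Ndnf, Klra1 and Fat2 were lost under at least 1 alternative. No group had the 4 or more libraries that a check for outlying samples needs.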

How the results depend on the processing

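For the change between days under the knockdown, the named genes kept their direction and their call under the alternatives run, except that Hk2 reversed with total counts (-0.0057 in place of 0.16), Tead4 missed the threshold there (0.098), and Sox9 and Pparg missed it with DESeq2 and without some libraries. Acan, E2f1, Jun, Nptx1 and Acsl6, not called, passed under at least 1 alternative. Of the list medians under the alternatives, 247 were marked as moved from the main value and 382 as the same. All 42 lists had values of both kinds. With a change of at least 2-fold asked for, calls went from 10839 to 3838 (2056 higher, 1782 lower). The counts stayed within 1.5 times of the main ones under all other settings, from 9736 with at least 10 counts in every library to 11759 with no filter on low counts. Leaving out 1 library at a time gave 10574 to 10771 calls, and 95.3 to 96.3% of the main calls were kept. Total counts without scaling factors kept 9842 of the calls and reversed 10 to a call the other way, none of them a named gene.

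For the difference between arms, calls went from 3340 to 2053 (1126 higher, 927 lower) at an adjusted p under 0.01 and to 345 (148 higher, 197 lower) at 2-fold or more. DESeq2 called 2463 and kept 2449 of the main calls (73.3%), with no adjusted p for 1888 genes. Leaving out 1 library at a time gave 2850 to 3375 calls and a higher share of 52.1 to 60.6% in place of 53.2%. Of the genes named, 38 lost their call under at least 1 alternative, among them Yap1, Ndnf, Klra1, Fat2, Ccnd1, Acta2 and Col2a1, and none reversed. The cause was not tested.

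No pairing by replicate number was detected: deviations of same-numbered d2.5 and d5 libraries correlated at -0.055, 0.026 and 0.081. Those of different-numbered libraries correlated at -0.094 to 0.067. Such values cannot tell whether same-numbered samples shared an origin, which the labels do not give. With the replicate number as a block, 10840 genes were called between days (5521 higher, 5319 lower) and 3289 for the difference (1751 and 1538), of which 10793 and 3231 were main calls. Depth limits genes with few counts at one day, whose ratios have wide intervals, and day and batch cannot be told apart under any setting.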

Other observations

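Some families outside the lists also moved; they were picked after their values had been seen and carry no test of the family. Beside Fmo1 the flavin monooxygenase Fmo2, of a family that oxidises nitrogen- and sulphur-containing compounds, rose from 0.248, 0.315 and 0.0796 CPM to 69.2, 80.5 and 69.8 CPM (8.35 ± 0.16). Both were close to 0 in every d2.5 library. Genes of retinoic acid metabolism moved as well. The synthesizing enzyme Aldh1a1 rose from 0.497, 0.236 and 0.557 CPM to 21.7, 20.2 and 17.97 CPM (5.52 ± 0.20), and the degrading enzyme Cyp26b1 fell from 36.6, 36.1 and 38.6 CPM to 10.5, 8.87 and 10.5 CPM (-1.90 ± 0.08). Keratins besides Krt12, Krt19 and Krt20 gave Krt13 with 85 counts at d2.5 and 1 at d5, and Krt10 at 0.01 on the log2 scale (adjusted p = 0.98).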
